A study of Mus musculus with 16 samples.

Results

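The comparison described here is the time in culture: R7T1 cells harvested 24 h after treatment began against the same cells harvested at 6 h. It uses 8 of the 16 arrays of the series, the 4 labelled 24 h and the 4 labelled 6 h, and each 24 h array was set against the 6 h array of its own treatment. The 4 treatments were the DMSO vehicle, the compound labelled BayK8644(2a), exendin-4, and both agents together, and each was also sampled at 0.5 and 2 h. BayK8644, a dihydropyridine, is an agonist of L-type calcium channels. Exendin-4, a peptide agonist of the GLP-1 receptor, raises cAMP in beta cells. No source used here gives the doses or says what 2a means.

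R7T1 is a mouse pancreatic beta-cell line that was immortalised with a doxycycline-controlled SV40 large T antigen, a viral protein that binds p53 and the retinoblastoma protein. Whether doxycycline was present during the treatments was not given in the sources used here. A treatment at a time had 1 array, so the 4 treatments stood in for replicates of a time. Nothing in the labels shows whether the arrays stand for separate cultures, and a p-value here reflects only how far these arrays scatter, part of which may be technical. Time since treatment and any other change of the cultures over those hours cannot be told apart.

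As background, p53 is a transcription factor that accumulates when cells are stressed and switches on genes that arrest division or lead to cell death. Its best known target, Cdkn1a, encodes the p21 inhibitor of cyclin-dependent kinases. When those kinases are inhibited, unphosphorylated retinoblastoma family proteins hold E2F sites shut in genes of DNA replication. Some of them also act within the DREAM complex, which binds a second kind of element, the cell cycle homology region (CHR), in genes of mitosis. CCAAT boxes, bound by NF-Y, often lie near a CHR. Beta cells divide rarely in the adult pancreas, whereas an immortalised line carries the transcripts of cells in cycle.

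Levels below are log2 of the deposited GCRMA intensity. The 6 h arrays had a median intensity between 10.8 and 11.2 and an upper quartile between 523 and 550, and the 24 h arrays between 10.8 and 11.6 and between 524 and 543. The log2 gap between the 3' and 5' control probe sets of Actb, which widens as RNA degrades, was 0.59 to 0.71 at 6 h and 0.66 to 0.77 at 24 h. All 6 analysed beta-cell markers were above the filter level of log2 4, among them Ins2 (15.61 to 15.78 at 6 h, 15.67 to 15.79 at 24 h). All 10 markers of mesenchymal, endothelial and leukocyte cells were below it on all 8 arrays. Gcg, Irx2 and Sst of the alpha and delta cells, Cela1 of acinar cells and Krt7 and Cftr of duct cells passed the filter. Irx1 of alpha, Hhex of delta and Ppy of PP cells did not pass it. Nor did Cpa1, Prss2 and Ptf1a of acinar cells or Krt19 and Sox9 of duct cells. Cftr lay between 3.83 and 4.155 at 6 h and between 3.36 and 3.94, below the filter level, at 24 h.

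Of 10610 genes tested, 553 were higher and 457 lower at 24 h with limma (Benjamini-Hochberg adjusted p under 0.05), which is 5.21% and 4.31% of the genes. Without adjustment 2833 genes had p under 0.05, against 530 by chance. Most changes were small. Of the 1010 genes called, 806 differed by less than 1.5-fold, 23 were 2-fold or more higher and 2 were 2-fold or more lower. The median over all genes tested was 0.00. The values of 6 h and 24 h did not overlap in 705 of the 1010 genes called and in 1235 of all 10610 genes. The count rests on which treatments enter. It was 641 without the DMSO arrays, 362 without those of BayK8644, 293 without those of both agents and 1098 without those of exendin-4, and 268 of the 1010 genes (118 higher, 150 lower) passed each time. The plot of change against level shows the rises reaching further from 0 than the falls, mostly in genes of low level.

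**Figure D1:**
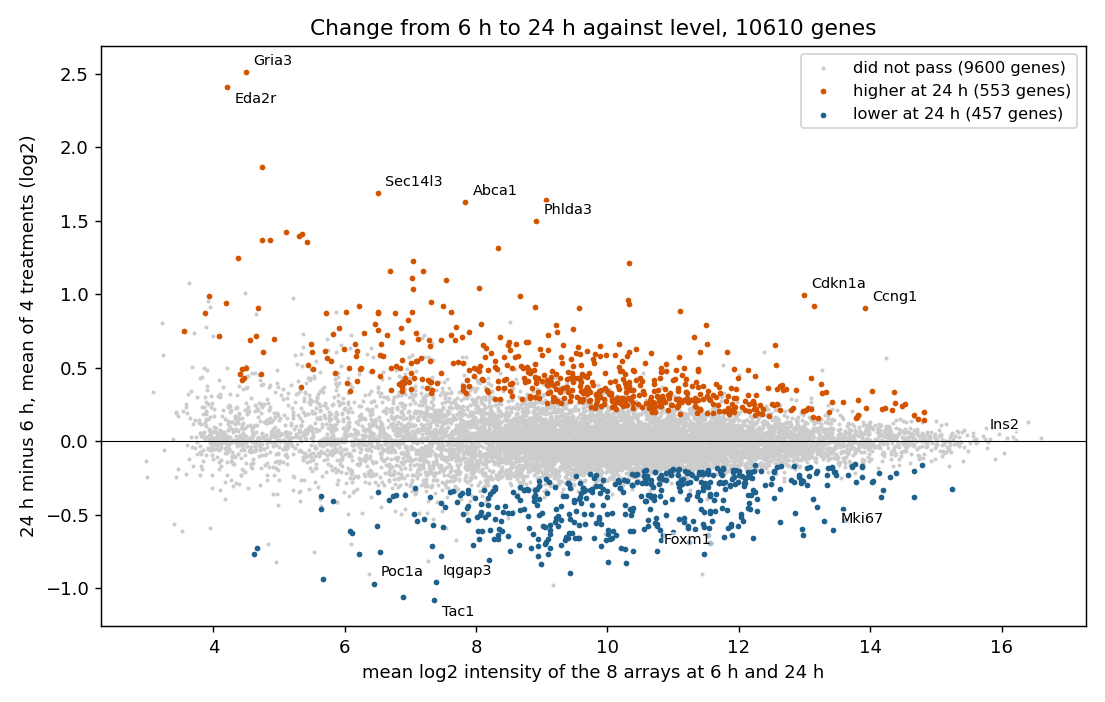
Each point is 1 of 10610 genes, with its mean log2 intensity over the 8 arrays of 6 h and 24 h on the x axis and its 24 h minus 6 h difference (log2, mean of 4 treatments) on the y axis. Orange points (553 genes) passed as higher and blue points (457 genes) as lower at 24 h, grey points did not pass, and the rises of Gria3 and Eda2r start from levels below the filter level.

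The p53 targets rose. Of 26 genes in a list of p53 targets 21 were tested, and 13 of them rose (61.9%, beside 5.21% of all genes) while 0 fell. The list had a median difference of 0.39, and 0.30 in DMSO alone. Cdkn1a stood at 12.38 in DMSO, 12.63 with BayK8644, 12.40 with exendin-4 and 12.56 with both at 6 h, and at 13.22, 13.60, 13.41 and 13.71 at 24 h. All 4 values of 24 h lay above all 4 of 6 h. The rise was 0.99 ± 0.05 (SE, n = 4 treatments, 1.99-fold, limma adjusted p = 0.000368), and 0.84 between the DMSO arrays. Ccng1, the cyclin G1 gene, which encodes a regulator of p53 signalling, was at 13.37, 13.51, 13.49 and 13.51 at 6 h in the same order and at 14.18, 14.53, 14.35 and 14.45 at 24 h. Its rise was 0.91 ± 0.05 (SE, n = 4, 1.87-fold, limma adjusted p = 0.000368), with no overlap between the times.

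Phlda3, which encodes an inhibitor of AKT at the membrane, rose most among the p53 targets that were above the filter level at both times. It was at 7.98, 8.06, 8.12 and 8.51 at 6 h and at 9.46, 9.70, 9.40 and 10.12 at 24 h, a rise of 1.499 ± 0.081 (SE, n = 4, 2.83-fold, limma adjusted p = 0.000368), and 1.47 in DMSO. Eda2r, a receptor gene of the TNF receptor family, lay between 2.92 and 3.11 at 6 h, below the filter level, and between 4.92 and 6.08 at 24 h. The size of its rise, 2.41 ± 0.19 (SE, n = 4), is therefore set in part by the floor of the method. Trp53inp1, which promotes cell death and autophagy, rose by 0.92 and the translesion polymerase gene Polk by 0.66. The BH3-only cell death gene Bbc3, which encodes PUMA, rose by 0.63, Zmat3 by 0.61 and the antiproliferative gene Btg2 by 0.50. Smaller rises were those of Perp (0.39), the nuclease gene Aen (0.37), Sesn1 (0.29) and Ei24 (0.22). With 1 treatment left out in turn, 10 to 13 of the 13 passed. Perp, Sesn1 and Ei24 were the 3 that were lost, without the BayK8644 arrays (adjusted p = 0.0532, 0.0721 and 0.0695) and without those of both agents (adjusted p = 0.0585, 0.0844 and 0.116), and Ei24 also without those of DMSO (adjusted p = 0.0647).

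The other 8 p53 targets tested did not pass. Mdm2, which encodes the ubiquitin ligase that degrades p53, had a difference of 0.23 (adjusted p = 0.0735), with 11.40 to 11.62 at 6 h and 11.64 to 11.91 at 24 h and no overlap. Plk2, Sesn2, Pmaip1, Rrm2b, Rprm and Gtse1 had differences of 0.27, 0.23, 0.22, 0.14, 0.52 and 0.07, and the repair gene Ddb2 had one of -0.02. The median of the 21 targets relative to 0.5 h was -0.01 at 2 h, 0.07 at 6 h and 0.38 at 24 h.

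The window before a RefSeq start of Cdkn1a is shown because its letters match a pattern of p53 response elements. It is the 250 bases before the upstream of 2 RefSeq starts, on the plus strand of GRCm38.p6 at chr17:29090729-29090978. The capitals mark a match to this pattern, a pair of half-sites with up to 13 bases between them, which begins 73 bases before the start. The bases right after the capitals, tgacatgttc, depart from the half-site pattern only in their first letter and are not marked. Which of these letters p53 binds was not tested.

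Cdkn1a: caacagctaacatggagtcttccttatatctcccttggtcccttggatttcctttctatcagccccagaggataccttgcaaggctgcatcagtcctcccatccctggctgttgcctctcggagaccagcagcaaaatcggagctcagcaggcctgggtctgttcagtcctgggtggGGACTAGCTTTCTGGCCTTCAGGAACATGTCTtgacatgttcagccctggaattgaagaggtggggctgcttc

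Of the 21 p53 targets tested, 15 had an entry in the RefSeq promoter table, which holds 250 bases before and 50 after each start. Cdkn1a was the 1 of these 15 (6.67%) with such a match, and 20 of all 27025 genes with an entry (0.074%) had one. A match is a description of these letters, and no match says only that this window lacks them.

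**Figure D2:**
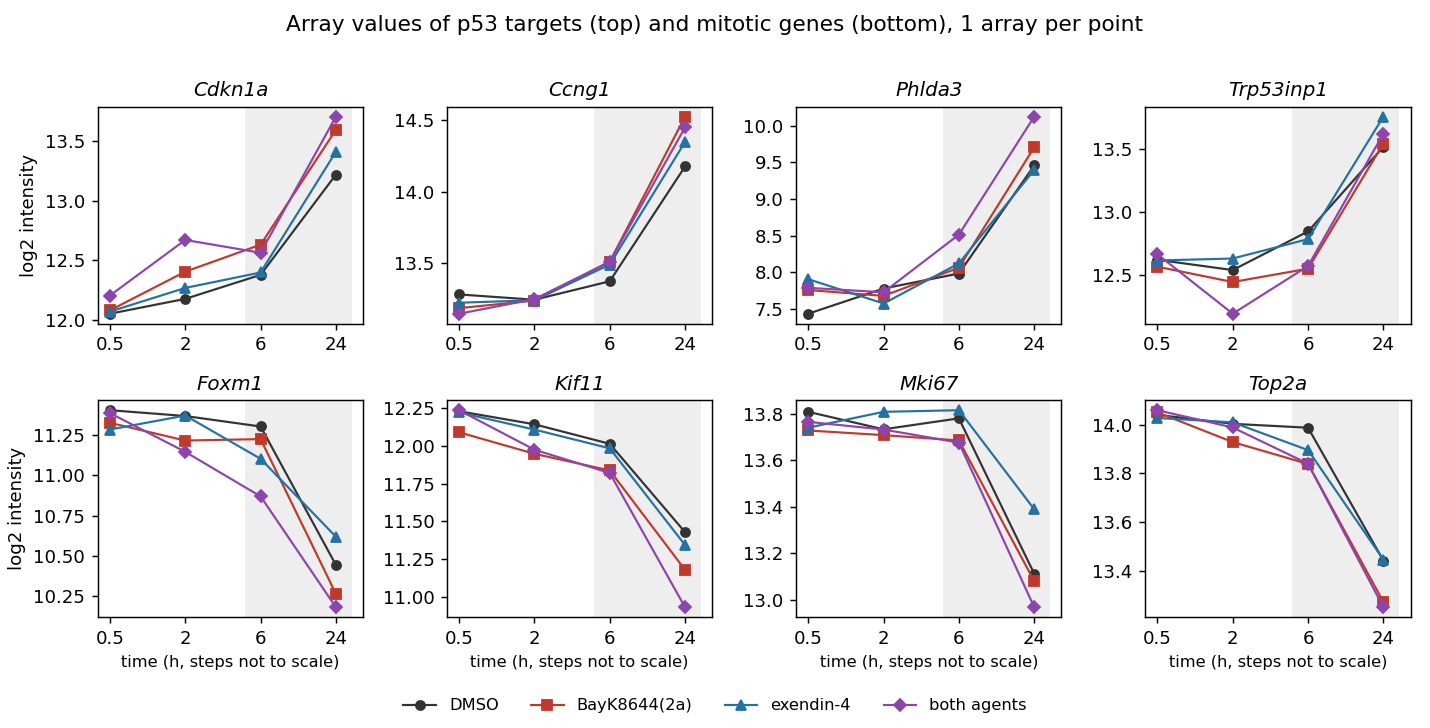
Log2 intensity (y axis) of 4 p53 targets in the upper row and 4 genes of mitosis in the lower row at 0.5, 2, 6 and 24 h (x axis, steps not to scale), with 1 array per point and 1 line per treatment. The shaded part holds the arrays compared: in each of the 8 genes the 4 values of 24 h lie on the same side of the 4 values of 6 h, higher in the upper row and lower in the lower row. All 8 are among the 1010 genes called, of which 705 had no overlap, beside 1235 of all 10610 genes.

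The genes of mitosis fell almost as a block. Of 61 genes in a list of G2/M and mitosis 59 were tested, 58 fell (98.3%, beside 4.31% of all genes) and 0 rose. Spc25 was the remaining gene, with a difference of -0.12 (adjusted p = 0.0796). The median difference was -0.57, and by treatment it was -0.51 in DMSO, -0.52 with BayK8644, -0.51 with exendin-4 and -0.65 with both. All 59 differences were negative in DMSO alone. The median relative to 0.5 h was -0.12 at 2 h, -0.19 at 6 h and -0.76 at 24 h, and -0.04, -0.10 and -0.61 in DMSO. In bulk RNA, fewer dividing cells and less of these transcripts per cell cannot be told apart.

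Regulators of the mitotic programme fell too. Mybl2, which encodes the B-Myb subunit of the complex that activates mitotic genes, was at 9.80 in DMSO, 9.99 with BayK8644, 9.78 with exendin-4 and 9.93 with both at 6 h, and at 8.998, 8.943, 9.016 and 8.948 at 24 h. That was a fall of 0.90 ± 0.07 (SE, n = 4, 1.86-fold, limma adjusted p = 0.00108), with the 2 times well apart. Foxm1, the transcription factor gene that acts with it, was at 11.30, 11.22, 11.10 and 10.87 at 6 h and at 10.44, 10.27, 10.62 and 10.18 at 24 h. Foxm1 fell by 0.75 ± 0.08 (SE, n = 4, limma adjusted p = 0.00223), and by 0.86 between the DMSO arrays. Cdc25b, a phosphatase that starts mitosis, fell by 0.82, but by 0.39 in DMSO, and its call was lost without the arrays of both agents (adjusted p = 0.0716). The kinase genes Aurkb, Plk1, Ttk, Aurka and Cdk1 fell by 0.77, 0.68, 0.66, 0.59 and 0.54.

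Genes of the spindle and chromosomes, and further members, fell by differing amounts. Kif11, the kinesin that separates the spindle poles, was at 12.01, 11.84, 11.98 and 11.82 at 6 h and at 11.43, 11.18, 11.34 and 10.93 at 24 h, a fall of 0.69 ± 0.06 (SE, n = 4, limma adjusted p = 0.0014). Mki67, which encodes the proliferation marker Ki-67, was at 13.78, 13.69, 13.82 and 13.68 at 6 h and at 13.11, 13.08, 13.39 and 12.97 at 24 h. It fell by 0.60 ± 0.05 (SE, n = 4, 1.52-fold, limma adjusted p = 0.00155). Top2a, the topoisomerase gene, fell by 0.54 on its brightest probe set, while its probe sets differed in sign. The cyclin genes Ccna2 and Ccnb2 fell by 0.65 and 0.46, the survivin gene Birc5 by 0.64, and the securin gene Pttg1 by 0.28. The smallest fall was that of the checkpoint gene Bub3 (-0.17). With 1 treatment left out in turn 52 to 58 members fell, and 52 did so each time. Besides Cdc25b, the calls lost were those of Cit, Aspm, Pttg1, Smc4 and Bub3, with adjusted p up to 0.156 (Bub3, without the arrays of both agents).

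The sequences before 4 of these genes are shown because all 4 passed both over the 4 treatments and in the test without agents described further on, and because each window holds a CHR and a CCAAT box. Ncapg and Ect2 met the same terms and are not shown. Each is the 250 bases before a RefSeq start on GRCm38.p6. Kif11 lies at chr19:37376132-37376381 on the plus strand, Prc1, which bundles the spindle midzone, at chr7:80294226-80294475 on the plus strand, Kif22, a chromosome-bound kinesin gene, at chr7:127042421-127042670 on the minus strand, and Top2a at chr11:99024190-99024439 on the minus strand. Capitals mark TTTGAA, the CHR, and CCAAT, on either strand.

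Kif11: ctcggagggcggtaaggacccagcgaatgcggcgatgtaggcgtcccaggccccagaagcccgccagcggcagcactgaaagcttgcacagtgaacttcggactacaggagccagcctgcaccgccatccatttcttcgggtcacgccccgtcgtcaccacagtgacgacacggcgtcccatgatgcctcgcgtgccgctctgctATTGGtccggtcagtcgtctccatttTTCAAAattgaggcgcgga

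Prc1: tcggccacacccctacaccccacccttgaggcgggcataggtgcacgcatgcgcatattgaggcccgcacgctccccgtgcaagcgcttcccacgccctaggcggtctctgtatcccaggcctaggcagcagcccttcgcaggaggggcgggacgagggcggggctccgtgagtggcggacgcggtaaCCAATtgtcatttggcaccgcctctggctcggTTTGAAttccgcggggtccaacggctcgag

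Kif22: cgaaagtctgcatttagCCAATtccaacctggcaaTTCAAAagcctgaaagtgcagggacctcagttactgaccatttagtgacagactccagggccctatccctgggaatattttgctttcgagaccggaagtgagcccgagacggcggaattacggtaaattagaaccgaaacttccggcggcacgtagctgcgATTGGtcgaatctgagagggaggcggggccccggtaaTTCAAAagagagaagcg

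Top2a: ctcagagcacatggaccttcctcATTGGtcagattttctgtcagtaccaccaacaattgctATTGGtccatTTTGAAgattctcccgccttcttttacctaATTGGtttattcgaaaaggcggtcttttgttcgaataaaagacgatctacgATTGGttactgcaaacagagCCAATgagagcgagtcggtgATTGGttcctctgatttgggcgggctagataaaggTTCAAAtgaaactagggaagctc

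In Kif11 the CCAAT box begins 45 and the CHR 19 bases before the start, and in Prc1 they begin 62 and 30 bases before it. Of the 59 mitotic genes tested 48 had an entry in the promoter table, and the 300-base window of 29 of them (60.4%) held both motifs, beside 7.97% of all 27025 genes and 5.56% of the 8698 tested genes with an entry. The CHR letters were in 68.8% and CCAAT in 72.9% of the 48, beside 20.2% and 41.1% of all genes. Genes of the list without both motifs fell too, such as Birc5 and Nek2, so the pair is not shared by all members. Mybl2 and Cdc25b, the 2 largest falls of the list, lacked the pair. Spc25, which did not pass, and Bub3, the smallest fall, held it.

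Genes of the G1/S transition and of DNA replication fell less. Of 52 listed 49 were tested, 25 fell (51.0%, beside 4.31% of all genes), 1 rose and 48 differences were negative. The median was -0.24, and -0.18 in DMSO. The replication initiation gene Mcm10 was at 9.92, 9.76, 9.98 and 9.92 at 6 h and at 9.34, 9.26, 9.13 and 9.22 at 24 h, a fall of 0.66 ± 0.07 (SE, n = 4, limma adjusted p = 0.00251). Rrm2, a subunit of ribonucleotide reductase, fell by 0.59 ± 0.05 (SE, n = 4, limma adjusted p = 0.00155), from 12.05 to 12.22 at 6 h down to 11.45 to 11.69 at 24 h. E2f2, Cdc45, Cdc6, Tk1 and Uhrf1 fell by 0.57, 0.55, 0.52, 0.50 and 0.46. Other members did not pass, among them the abundant Pcna (-0.12), Mcm2 (-0.12), Mcm6 (-0.07) and the kinase gene Cdk4 (-0.09). With 1 treatment left out 9 to 22 members fell, 9 without the BayK8644 arrays and 9 without those of both agents, and Mcm10, Rrm2, E2f2, Cdc45, Cdc6, Tk1, Uhrf1, Dbf4 and Rpa2 passed each time. The E2F letters TTTCCCGC or TTTGGCGC, on either strand, were in the window of 14 of the 43 genes of this list with an entry (32.6%), beside 1.8% of all genes, 3.69% of the 8698 tested genes with an entry and 4.17% of the mitotic list.

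Ccnd2, the D-type cyclin of beta cells, was the 1 member of the G1/S list that rose. It was at 12.54 in DMSO, 13.23 with BayK8644, 12.74 with exendin-4 and 13.45 with both at 6 h, and at 12.68, 13.50, 12.98 and 13.70 at 24 h. The values of the 2 times overlap, since the treatments differ by more than the times. The rise was 0.22 ± 0.04 (SE, n = 4, limma adjusted p = 0.015), 0.14 in DMSO, and was lost without the arrays of BayK8644 (adjusted p = 0.0943) or of both agents (adjusted p = 0.105).

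Of 20 tested inhibitors of the cell cycle and markers of quiescence 6 rose (30%, beside 5.21% of all genes) and 1 fell (5%, beside 4.31% of all genes), with a median of 0.05. Cdkn1a, Ccng1 and Btg2, which are p53 targets too, led the rises and passed with each treatment left out. The other rises were those of the p15 gene Cdkn2b (0.26), Gadd45g (0.31) and the MYC antagonist Mxd4 (0.31), all lost with at least 1 treatment left out (adjusted p up to 0.135). Cdkn2d, which encodes the p19 inhibitor of CDK4, fell by 0.45, with a difference of -0.20 in DMSO. Its call was lost without the arrays of BayK8644 (adjusted p = 0.052) or of both agents (adjusted p = 0.0804). Cdkn1b, the p27 inhibitor of quiescent cells, differed by 0.04 (adjusted p = 0.596), with 13.57 to 13.73 at 6 h and 13.67 to 13.73 at 24 h. The retinoblastoma gene Rb1 differed by 0.21 (adjusted p = 0.0634) and Cdkn2a by 0.00.

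**Figure D3:**
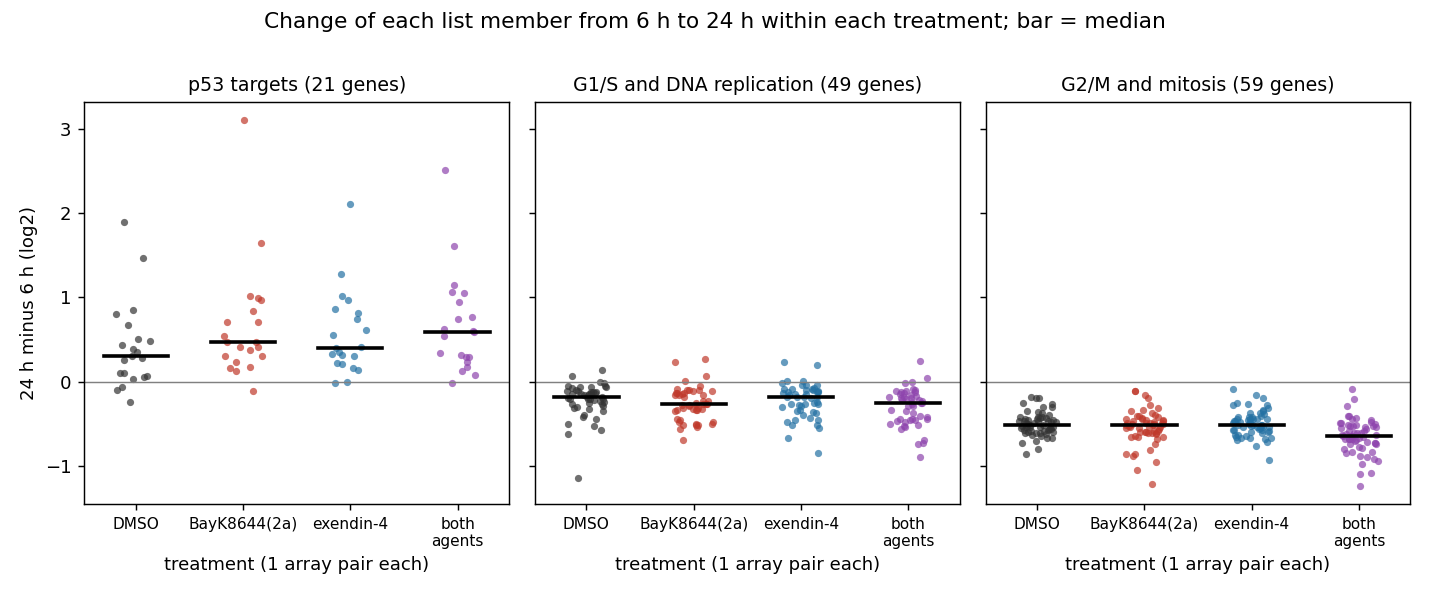
Each point is the 24 h minus 6 h difference (log2, y axis) of 1 gene within 1 treatment (x axis, 1 pair of arrays each) for 21 p53 targets, 49 genes of G1/S and DNA replication and 59 genes of G2/M and mitosis, and the bars are medians. The medians of the p53 targets lie between 0.30 and 0.59 and those of the mitotic genes between -0.65 and -0.51.

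The differences between the DMSO arrays given above rest on 1 array at each time and carry no test. The test of 24 h against 6 h without agents came from a model of all 16 arrays in which the effects of the agents add up. Its estimate therefore also draws on the arrays with agents. In this test 23 genes were higher and 25 lower (0.452% of genes tested, limma, 1011 at an unadjusted p under 0.05). All 48 were also called over the 4 treatments, in the same direction. Both tests use the same arrays of 6 h and 24 h, so this overlap is not a separate check. The 48 included 5 p53 targets (Eda2r, Phlda3, Cdkn1a, Ccng1 and Trp53inp1) and 15 genes of mitosis. Cdkn1a differed by 0.84 (adjusted p = 0.00614), Foxm1 by -0.83 (adjusted p = 0.0185), Kif22 by -0.59 (adjusted p = 0.0168) and Top2a by -0.52 (adjusted p = 0.0168). With arrays left out this count was 0 without the DMSO pair and 2 without any of the other 3 pairs. The model then fits the remaining arrays of 6 h and 24 h exactly, and its error comes only from the arrays of 0.5 and 2 h. These counts therefore cannot show whether the calls depend on 1 treatment. Without the DMSO pair the estimate also rests wholly on the agent effects adding up.

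A reading that shares no array with the selection gave the same direction. Genes were called on the pairs of 3 treatments and then read in the treatment left out. Of 326 genes called higher without DMSO, 296 (90.8%) were higher in DMSO too, and of 315 called lower 290 (92.1%) were lower, beside 64.2% of all genes that had the same sign in DMSO as in the other 3 treatments. Their median difference in DMSO was 0.31 and -0.35, against 0.51 and -0.51 in the other 3 treatments. For exendin-4 left out the shares were 81.7% of 630 and 86.8% of 468, beside 60.9% of all genes, with medians of 0.21 and -0.27 against 0.40 and -0.39. For BayK8644 left out they were 96.0% of 177 and 99.5% of 185, beside 71.2% of all genes (0.55 and -0.51 against 0.58 and -0.57). For both agents left out they were 98.5% of 133 and 99.4% of 160, beside 72.5% of all genes (0.65 and -0.66 against 0.60 and -0.54). The medians of the 3 treatments that chose the genes are raised by that choice, so the gap to the treatment left out is not a comparison of treatments.

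The test of the change itself on the arrays with BayK8644 against those without it called 0 genes (0% of genes tested, limma, 484 with an unadjusted p under 0.05 against 530 by chance). The test for exendin-4 also called 0 genes (0%, 381 at an unadjusted p under 0.05). With no filter on low levels the first test called 8 genes, and with a pseudocount of 16 it called 1. The somatostatin gene Sst was singled out after its values were seen. It was at 5.12 and 5.11 without BayK8644 and at 5.41 and 6.08 with it at 6 h, and at 5.14 and 5.13 against 7.37 and 7.61 at 24 h, a difference between the changes of 1.73 (adjusted p = 0.229).

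The largest rises also held genes that were in none of the lists. Sec14l3, which encodes a lipid-binding protein, rose by 1.69 ± 0.13 (SE, n = 4, 3.23-fold, limma adjusted p = 0.00108), from 5.45 to 5.94 at 6 h to 6.96 to 7.84 at 24 h. The protein-coding gene 1700007K13Rik, also called Pierce1 and known as a gene that p53 can induce, was at 7.83, 8.48, 8.13 and 8.52 at 6 h and at 9.48, 10.13, 9.62 and 10.29 at 24 h. It rose by 1.64 ± 0.07 (SE, n = 4, 3.12-fold, limma adjusted p = 0.000279), and by 1.65 in DMSO. St6gal1, a sialyltransferase gene, rose by 1.41, Pid1 by 1.36, the heparan sulfatase gene Sulf2 by 1.31, the prostaglandin E receptor gene Ptger3 by 1.23 and the xylulose reductase gene Dcxr by 1.21. Cgref1, Atg9b, Rit2, Pqlc3, Tcp11l2 and Fam114a1 rose by 1.03 to 1.16. The mean of Rit2 was 7.19 at 0.5 h, 6.47 at 6 h and 7.58 at 24 h. Rit2 and Fam114a1 were lost without the arrays of BayK8644 (adjusted p = 0.0559) and of both agents (adjusted p = 0.0871), in that order. The others passed with each treatment left out.

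Abca1, which exports cholesterol from the cell, was at 8.12 in DMSO, 6.09 with BayK8644, 7.55 with exendin-4 and 6.32 with both at 6 h, and at 8.79, 8.20, 9.09 and 8.52 at 24 h. The 2 arrays with BayK8644 were the low ones at 6 h, and all 4 values of 24 h lay above all 4 of 6 h. At 0.5 h Abca1 was at 8.025 with BayK8644 and at 8.18 with both. The rise was 1.63 ± 0.23 (SE, n = 4, 3.09-fold, limma adjusted p = 0.00603), and 0.68 in DMSO alone. The test of a difference between the changes with and without BayK8644 did not pass for it (1.05, limma adjusted p = 0.863). Of 7 tested LXR targets 2 rose (28.6%, beside 5.21% of all genes), Abca1 and Smpdl3a (0.67, 0.34 in DMSO), and 0 fell.

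The largest falls likewise held genes that were in none of the lists. Iqgap3, a scaffold gene of proliferating cells, fell by 0.96 ± 0.08 (SE, n = 4, 1.94-fold, limma adjusted p = 0.00108), from 7.67 to 8.08 at 6 h down to 6.67 to 7.21 at 24 h. Ticrr, a replication initiation gene, fell by 0.84, the kinetochore gene Ska1 by 0.83 (-0.38 in DMSO), and Troap and Brip1 by 0.77. Depdc1b, Tedc1 and Arhgef39 fell by 0.81, 0.78 and 0.78, and the centriole gene Poc1a by 0.97 (-0.48 in DMSO). Tac1, which encodes substance P, fell by 1.08 ± 0.25 (SE, n = 4, limma adjusted p = 0.0377). Its values ranged from 5.99 in DMSO to 10.14 with both agents at 6 h and from 5.54 to 8.25 at 24 h, so the times overlap, and the fall was 0.45 in DMSO. A930006K02Rik, a long non-coding RNA gene, fell by 1.06, and Pcdh8, a protocadherin gene, by 0.93 but by 0.23 in DMSO. Ska1 was lost without the arrays of both agents (adjusted p = 0.0585) and Arhgef39 without those of BayK8644 (adjusted p = 0.0556). Tac1, Pcdh8 and Poc1a were each lost without BayK8644 or both (adjusted p = 0.155 and 0.144 for Tac1, 0.105 and 0.0901 for Pcdh8, 0.051 and 0.0847 for Poc1a), Pcdh8 and Poc1a also without exendin-4 (adjusted p = 0.0555 and 0.0707), and Poc1a without DMSO (adjusted p = 0.0558). In all, 83 of the 457 genes that fell (18.2%) were members of the G1/S or G2/M list, which hold 49 and 59 of all 10610 genes tested.

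The share of beta-cell identity genes that passed was near that of all genes. Of 26 tested 2 rose (7.69%, beside 5.21% of all genes) and 0 fell (beside 4.31%), with a median of 0.06. Of their differences 24 were positive and 2 negative, and in DMSO alone 19 were positive and 7 negative. Ins2 (0.04, adjusted p = 0.667), Pdx1 (0.04, adjusted p = 0.538), Neurod1 (0.07, adjusted p = 0.547) and Nkx6-1 (-0.11, adjusted p = 0.329) did not pass. Saturation at the level of Ins2 was not tested. The rises were those of G6pc2 (0.15), a glucose-6-phosphatase subunit gene, and of the connexin 36 gene Gjd2 (0.59, 1.03 in DMSO), and both were lost with treatments left out, among them exendin-4 (adjusted p = 0.055 and 0.0501) and both agents (adjusted p = 0.174 and 0.0866). Of 34 genes of the secretory granule and exocytosis 6 rose (17.6%, beside the same 5.21%) and 0 fell, with a median of 0.08. The granin gene Chgb was at 14.19, 14.22, 14.05 and 14.29 at 6 h and at 14.38, 14.63, 14.45 and 14.63 at 24 h, with no overlap. It rose by 0.34 ± 0.04 (SE, n = 4, limma adjusted p = 0.0051). Ptprn, Cadps, Cplx2, Scg5 and Chga rose by 0.32, 0.28, 0.28, 0.24 and 0.21, and all 5 were lost with the arrays of both agents left out (adjusted p = 0.112 to 0.165). In DMSO Chgb and Ptprn differed by 0.195 and 0.145.

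**Figure D4:**
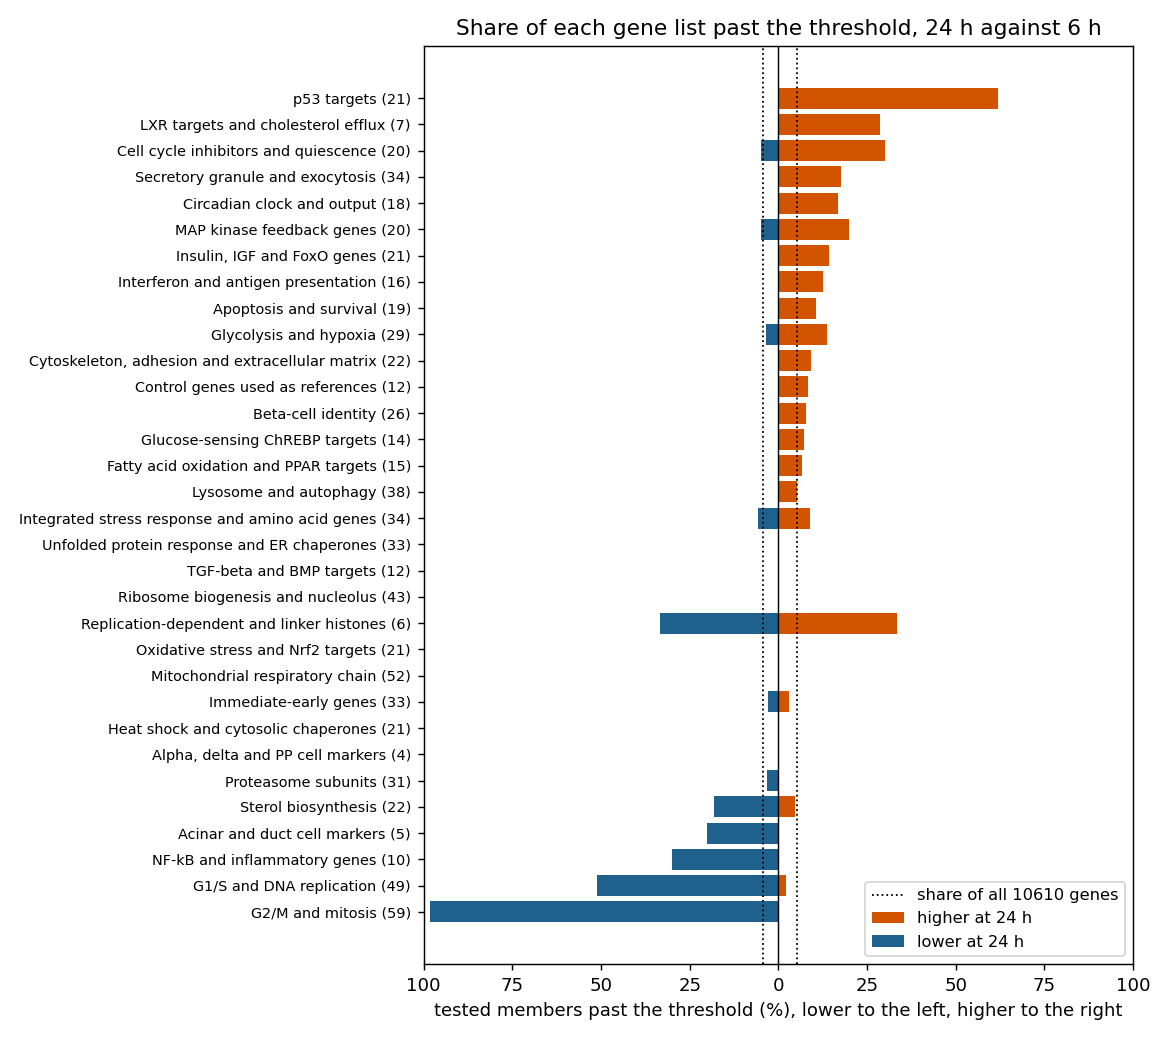
Share of tested members (x axis, percent) past the threshold as lower (left, blue) and higher (right, orange) at 24 h for each gene list (y axis, number tested in brackets), with dotted lines at the shares of all 10610 genes. The mitotic list reaches 98.3% to the left and the p53 targets 61.9% to the right, and 7 lists with no bar had 0 members past the threshold.

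In smaller groups a few members passed, and their shares stand beside 5.21% higher and 4.31% lower among all genes. Of 22 sterol biosynthesis genes Mvk, Idi1, Fdps and Nsdhl fell (18.2%), by 0.38, 0.36, 0.29 and 0.28, and Tm7sf2 rose (4.55%) by 0.50, with a median of -0.18 and -0.07 in DMSO. Of 10 NF-kB and inflammatory genes 3 fell (30%), the chemokine gene Cxcl10 by 0.54 and the NF-kB subunit genes Nfkb2 and Relb by 0.51 and 0.40. The DMSO differences of Cxcl10 and Nfkb2 were larger, -0.75 and -0.75. Of 29 glycolysis and hypoxia genes 4 rose (13.8%), Adm by 0.68, P4ha2 by 0.38, Pfkm by 0.27 and Ddit4 by 0.27, and the hexokinase gene Hk1 fell (3.45%) by 0.43. Of 18 clock genes the output genes Per3, Dbp and Tef rose (16.7%), by 0.50, 0.35 and 0.32. In DMSO Per3 and Dbp differed by 0.14 and 0.26. Nr1d1 (0.21, adjusted p = 0.184) and Per1 (0.01, adjusted p = 0.93) did not pass. Of 20 MAP kinase feedback genes Spry1, Dusp6, Etv5 and Dusp4 rose (20%), by 0.73, 0.38, 0.34 and 0.30, and Spred1, whose probe sets differed in sign, fell (5%) by 0.34. Of 34 genes of the integrated stress response and amino acid metabolism 3 rose (8.82%), Nupr1 by 0.68, Slc7a3 by 0.31 and Ddit4. The serine synthesis gene Psat1 and the serine hydroxymethyltransferase gene Shmt2 fell (5.88%), by 0.24 and 0.23, and the median of the list was -0.06. In DMSO Nupr1 and Slc7a3 differed by 0.33 and 0.235, and Psat1 and Shmt2 by -0.16 and -0.11. Of 21 genes of insulin, IGF and FoxO signalling 3 rose (14.3%), Pik3ip1 by 0.87, Igfbp4 by 0.43 and the insulin receptor gene Insr by 0.38, and 0 fell. Of 16 interferon and antigen presentation genes Lgals3bp and Rtp4 rose (12.5%), by 0.65 and 0.47, and 0 fell. Of 38 lysosome and autophagy genes Wipi1 and the cathepsin gene Ctsl rose (5.26%, near the share of all genes), by 0.60 and 0.20, and 0 fell. Of the 54 called members of lists other than those of p53 and the cell cycle, only Abca1, Smpdl3a, Chgb, Hk1, Spry1, Igfbp4, Lgals3bp and Wipi1 passed with each treatment left out in turn. The other 46 were lost at least once (adjusted p up to 0.221).

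Several groups had no member past the threshold, beside 5.21% higher and 4.31% lower among all genes. In the smallest groups this is near those shares. These were 52 genes of the respiratory chain (median 0.01), 43 of ribosome biogenesis (-0.11), 33 of the unfolded protein response (0.04), 21 of heat shock (-0.06), 21 of oxidative stress (0.01), 12 TGF-beta and BMP targets (-0.04) and 4 alpha, delta and PP cell markers (0.08). Having no call does not mean that a group was unchanged. In ribosome biogenesis 39 differences were negative and 4 positive, and in heat shock 17 were negative and 4 positive, beside 5326 negative among all 10610 genes. The split was weaker in DMSO alone, with 26 negative and 17 positive in ribosome biogenesis and 13 and 8 in heat shock. Both DMSO medians were -0.02, and 4760 of all genes were negative in DMSO. The fixed genes Fos, Myc, Ddit3 and Txnip did not pass either, with differences of 0.00, 0.17, -0.02 and 0.07. Of 12 reference genes Gusb rose by 0.34 (8.33%, beside 5.21% of all genes), and Actb differed by -0.03.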

How the data were processed

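Affymetrix mouse arrays with 45101 probe sets were used, 1 per treatment and time. The authors deposited linear intensity per probe set. The submitters' processing notes name GCRMA, which adjusts background by probe sequence and quantile-normalizes arrays; its version was not given in the sources used here. Per the labels' protocols, 5 ug of total RNA from RNeasy columns was amplified once and biotin-labelled. The deposited intensity was put on the log2 scale here, with no pseudocount. Of the probe sets 34958 had 1 gene symbol in the platform annotation, 932 several and 9211 none, and those with several or none were left out. A probe set was kept at log2 of 4 or more on at least 2 of the 16 arrays, and the brightest stood for its gene. Of the 493 called genes with over 1 probe set, 47 had probe sets that differed in sign, and 7 called genes were below the filter level on all arrays of the lower side. The number of arrays limits the precision.

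Models were fitted with limma 3.58.1 in R 4.3.3 (lmFit, eBayes with an intensity trend, two-sided) and adjusted with Benjamini-Hochberg over 10610 genes. The first held time and treatment as a block on 8 arrays, with 3 residual degrees of freedom, so an agent effect that changes with time counts as error. The second, on 16 arrays, held an effect of each agent for every time, with 4 residual degrees of freedom. The pairing comes from the treatment in the titles. The first model was tested on simulated arrays with known changes; the second was not. Promoter sequences and coordinates come from RefSeq tables of GRCm38.p6 (Python 3.11.15).

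The comparison, the 33 gene lists (939 genes) and the alternatives were chosen with earlier results of these data known. The genes named were the 15 largest rises and falls with the same sign in all 4 treatments and a level of at least 6 at the higher time, up to 2 called members per list and direction, and fixed genes. Further list members, and genes in sentences on the test without agents, were chosen after their values were seen. Some of the fixed genes are not reported here, and Gapdh, Ins1 and Mafa were not analysed here.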

Additional observations from a re-analysis of the deposited data

Results flagged for a closer look

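Among the 92 genes named by rule, 4 had 1 treatment whose change from 6 h to 24 h stood apart from the other 3 by Dixon's test, which chance gives in about 1 in 20 groups. They were the change of Gusb with both agents (0.43), of Igfbp4 with BayK8644 (0.30), of Pqlc3 with BayK8644 (1.31) and of Psmc5 in DMSO (-0.085).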

How the results depend on the processing

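The direction of all 80 named genes that passed held under every alternative in which they were tested (76 of the 80 with the filter at log2 6), and 28 of them passed under all of these. The rises among p53 targets (10 to 14 genes) and the falls among mitotic genes (52 to 59) stayed within 1.5 times of their counts. The count of all calls, 1010, was 571 with no filter, where more genes are tested, and 383 with no treatment block, and 293 to 1098 with 1 treatment left out. Falls of G1/S genes numbered 16 with no filter, 16 with eBayes without trend, 12 with no treatment block and 9 to 22 with 1 treatment left out. The count without agents, 48, was 18 with the mean of the probe sets and 12 without trend. It was 0 to 2 with 1 treatment left out, where the model fits the remaining arrays of 6 h and 24 h exactly. The test for BayK8644 gave 8 genes with no filter and 1 with a pseudocount of 16. The cause of these shifts was not tested. Of the 12 named genes that did not pass, 1 gained a call: without the exendin-4 arrays Nkx6-1 24 h minus 6 h was -0.182 (adjusted p = 0.0417). Others turned sign: Per1 was -0.002 after another quantile normalization, and Actb and Ddit3 were 0.11 and 0.19 with the mean of the probe sets. With 1 treatment left out Actb ranged from -0.091 to 0.028, Ddit3 from -0.077 to 0.005, Fos from -0.019 to 0.027, Ins2 from -0.008 to 0.085, Neurod1 from -0.002 to 0.127 and Per1 from -0.015 to 0.031. With each array centred on its median the split was 593 up and 431 down. Values near log2 4 lie close to the floor of the method. No paired analysis beyond the treatment block was possible because the labels carry no replicate numbers.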
